A study of Mesocricetus auratus with 36 samples.

Results

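Glycogen handling was followed through 9 genes in the hypothalamus of hibernating golden hamsters (Mesocricetus auratus). They encode the phosphorylases Pygm, Pygb and Pygl, the phosphorylase kinase subunits Phkg2, Phka1 and Phkb, the synthase Gys1, the branching enzyme Gbe1 and the glycogen-targeting phosphatase subunit Ppp1r3c. The genes were taken by name for these roles from the 32340 genes of each count table, with earlier results of these data known. Counts of calls among them are therefore a description. All 9 were among the 17926 genes that passed the filter on low counts. RNA came from 36 male hamsters, 6 in each of 6 groups, with 1 library per animal. Each library was made from the ependymal strip of the hypothalamus, cut by laser capture to enrich for tanycytes, so it is a mixture of cells. Long photoperiod hamsters had 14 h of light at 22 °C and are listed as 8 months old. All others were moved to 10 h of light at 8 °C. Pre-hibernation hamsters spent 4 weeks there (4 months old), and late pre-hibernation hamsters 8 to 12 weeks without torpor (6 months old). Interbout hamsters were taken 23 h into a warm interval after 3 torpor cycles, and torpid hamsters 13 h into a bout after 3 cycles. Both groups are listed with 8 to 12 weeks on 10 h of light and as 6 months old. Refractory hamsters (8 months old) had given up hibernation by about week 20 and had been free of torpor for 2 weeks or more. Light and temperature changed together and cannot be told apart; all 5 groups on 10 h of light shared both, and pre-hibernation, late pre-hibernation, interbout and torpid hamsters also differ from long photoperiod in listed age. The protocol dates some long photoperiod animals to the start of the experiment, so the listed age may not hold for all of them.

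Glycogen is the branched glucose polymer that cells keep as a local fuel. Phosphorylase releases glucose units from it and is switched on by phosphorylase kinase, which calcium and protein kinase A activate in turn. Synthase and branching enzyme build the polymer, and phosphatase subunits such as Ppp1r3c carry protein phosphatase 1 to it, which favours storage. In the brain the polymer is kept mainly by astrocytes, and tanycytes are related glia that line the floor of the third ventricle and sense fuels in the cerebrospinal fluid.

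Depth ran from 5.16 to 28.54 M counts per library (median 22.44 M; M, 1e6). Ribosomal RNA genes took over 5% of the counts in 3 libraries (refractory 4 with 41.8%, pre-hibernation 5 with 9.28% and interbout 6 with 7.21%) and under 1% in the other 33. These 3 are called the rRNA-rich libraries. Pygb, Phkb, Gys1 and Gbe1 were lowest of their groups in each of the 3, so values are also given without them where a call turns on it. All 11 tanycyte markers passed the filter, and their summed level was 1529 to 4086 normalised counts per 1e6 counts (CPM) over the libraries. All levels below are such CPM, with means ± SD over 6 animals. Differences are log2 fold changes ± SE from 1 edgeR quasi-likelihood fit, and a gene was called at a Benjamini-Hochberg adjusted p below 0.05 over all genes tested. Because tissue was sampled in bulk, fewer cells of a type and less RNA per cell cannot be told apart.

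Of the 9 genes, Pygm, Pygl, Phkg2, Phka1 and Ppp1r3c differed among the 6 groups, whereas 14.6% of all genes tested did. The smallest adjusted p was that of Pygm (4.61e-06), followed by Phkg2 (0.000515), Phka1 (0.00354), Pygl (0.0142) and Ppp1r3c (0.0461). The call of Ppp1r3c was the least firm: of 36 fits, each missing a different library, 9 kept it, and the adjusted p reached 0.092 without pre-hibernation 6, and it was lost without the rRNA-rich libraries (0.0512). The call of Pygl was lost without torpid 2 (adjusted p = 0.0537). Pygb, Phkb, Gys1 and Gbe1 were not called (adjusted p of 0.362, 0.434, 0.243 and 0.429). However, Pygb was called without the rRNA-rich libraries (adjusted p = 0.0184), and limma voom called Pygb and Gys1 (0.00596 and 0.0134). Both settings also called more of all genes among the 6 groups than the main fit, and limma voom did so in every comparison.

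Per kilobase of exon, the brain-form phosphorylase Pygb was by far the most abundant of the 9 transcripts, at 263 CPM per kb averaged over the 36 libraries. Pygl followed at 42.1, Phkg2 at 39.6, Pygm at 30.2 and Gbe1 at 29.1 CPM per kb. Phkb stood at 11.8, Gys1 at 7.12, Ppp1r3c at 4.45 and Phka1 at 1.53 CPM per kb. The spread across the season ran in a different order. The highest group mean was 4.85 times the lowest for Pygm, and 1.18 to 1.76 times for the other 8. For 6 genes (Pygm, Pygb, Pygl, Phkg2, Phkb and Gbe1) the mean was highest in torpor and lowest in the refractory group.

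Pygm, the muscle form of glycogen phosphorylase, was high in the 4 groups from pre-hibernation to torpor. It was low in the long photoperiod and refractory groups. Refractory hamsters shared 10 h of light and 8 °C with those 4 groups. The long photoperiod and refractory groups are both listed as 8 months old, and the other 4 as 4 or 6 months old. The part of light, temperature or age in this pattern was not tested. The lowest, median and highest libraries were 15.7, 37.7 and 55.8 CPM on long photoperiod. They were 49.8, 118 and 189 CPM in pre-hibernation and 85.7, 112 and 155 CPM in late pre-hibernation. Interbout hamsters had 52.6, 99.4 and 130 CPM, torpid hamsters 66.3, 100 and 255 CPM, and refractory hamsters 14.7, 24.3 and 37.8 CPM. All late pre-hibernation and torpid libraries therefore lay above all long photoperiod libraries, as they did for 2.8% and 3.65% of all genes. In turn 1 library each of pre-hibernation (the rRNA-rich animal 5) and interbout euthermia (animal 5) fell inside the long photoperiod range.

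**Figure D1:**
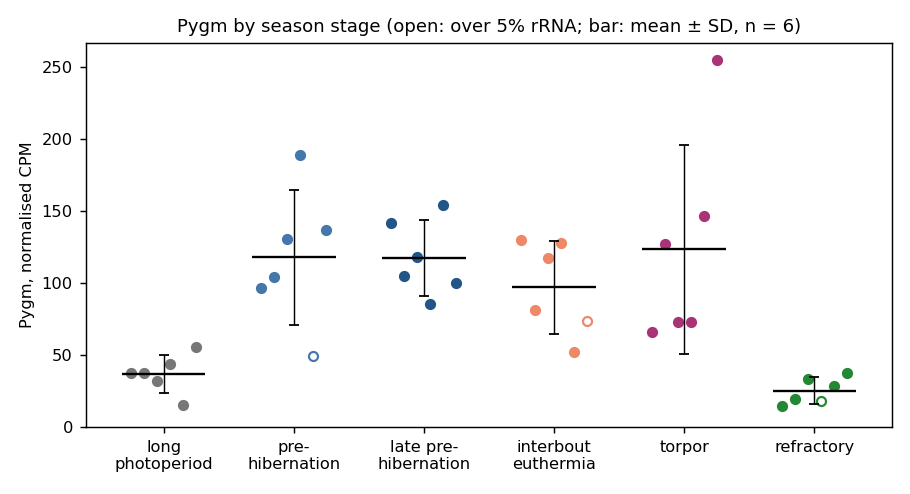
Pygm in normalised CPM (y axis) for each of the 36 animals by stage (x axis), with the group mean and SD; open circles are the 3 rRNA-rich libraries. The 6 refractory libraries lie between 14.7 and 37.8 CPM, below all interbout and all torpid libraries, while torpid 6 stands highest at 255 CPM.

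Against long photoperiod, Pygm was 3.17-fold higher in pre-hibernation (118 ± 46.7 against 37.3 ± 13.3 CPM, log2 fold change 1.66 ± 0.32, adjusted p = 0.00164). It was 3.15-fold higher in late pre-hibernation (118 ± 26.3 CPM, 1.66 ± 0.32, adjusted p = 0.00101) and 2.61-fold higher in interbout euthermia (97.2 ± 32.3 CPM, 1.38 ± 0.32, adjusted p = 0.0131). Torpor gave the largest of these folds, 3.31 (124 ± 72.4 CPM, 1.73 ± 0.32, adjusted p = 0.000317). Its rank is not firm, since fits without 1 library took the torpor estimate as low as 1.38. The torpid median, 100 CPM, was below those of pre-hibernation (118 CPM) and late pre-hibernation (112 CPM). Each of these 4 calls survived the removal of any 1 of the 12 libraries compared. All 4 comparisons share the long photoperiod animals. With long photoperiod 4 to 6 alone as the comparison group, the log2 fold changes were 1.61, 1.60 and 1.33 in pre-hibernation, late pre-hibernation and interbout euthermia, and none of the 3 was called (adjusted p of 0.0805, 0.0552 and 0.229). With long photoperiod 1 to 3 alone, the interbout difference of 1.42 was not called either (adjusted p = 0.0992).

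In refractory hamsters Pygm was back at a low level. It averaged 25.5 ± 9.2 CPM there against 97.2 ± 32.3 CPM in interbout hamsters, a difference of -1.91 ± 0.32 on the log2 scale (3.77-fold lower, adjusted p = 0.00177). The groups did not overlap, as held in this direction for 0.937% of all genes. Refractory and long photoperiod libraries overlapped, with a difference of -0.53 ± 0.32 (95% interval -1.17 to 0.11, adjusted p = 0.492). Between the 2 phases of the torpor cycle no difference was called: torpor was 0.35 ± 0.31 above interbout euthermia (95% interval -0.28 to 0.97, adjusted p = 0.676). That difference rested on torpid 6, since the value without it was -0.0004. Ordered by mean, the groups ran torpor, late pre-hibernation and pre-hibernation close together, interbout euthermia, long photoperiod and refractory. The step between interbout euthermia and long photoperiod was the one called among the neighbours tested.

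Pygm is annotated as protein-coding at 51673802 to 51689987 on the minus strand of 1 contig of assembly BCM_Maur_2.0. The annotation puts Phkg2 (71731289 to 71741951, minus strand) and Ppp1r3c (24271697 to 24276556, plus strand) on the same contig. Counts were taken over exons, 2865 bases for Pygm, and none of these bases is shared with another annotated gene. Of the 9 genes, Pygl alone shares exon bases with another annotated gene (126 bases, 4.43%), so a part of its counts could come from that neighbour.

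Pygb, the brain form, had group means within 871 to 1234 CPM. Long photoperiod hamsters averaged 966 ± 154 CPM, pre-hibernation hamsters 1099 ± 272 and late pre-hibernation hamsters 1079 ± 96.9. Interbout hamsters averaged 1082 ± 239, torpid hamsters 1234 ± 125 and refractory hamsters 871 ± 277 CPM. The 3 lowest libraries were the rRNA-rich ones, at 363 CPM (refractory 4), 589 CPM (pre-hibernation 5) and 622 CPM (interbout 6). Torpor against long photoperiod gave 0.35 ± 0.19 (adjusted p = 0.295), with 5 of 6 torpid libraries above all long photoperiod libraries. Without the rRNA-rich libraries, none of which is in these 2 groups, the estimate was 0.34 ± 0.096 and was called (adjusted p = 0.011). It was also called by limma voom (0.00294) and in a fit of these 2 groups alone (0.0294). For torpor over long photoperiod, each of these settings called more of all genes than the main fit.

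Pygl, the liver form, was higher in torpor than on long photoperiod. Torpid libraries ran from 101 CPM through a median of 150 to 175 CPM, against 82.5, 107 and 127 CPM on long photoperiod, and 5 of the 6 torpid libraries lay above all long photoperiod libraries. The means were 147 ± 26.7 CPM in torpor and 107 ± 15.1 CPM on long photoperiod, a 1.38-fold difference (0.46 ± 0.12, adjusted p = 0.0134). Leaving out torpid 2 or long photoperiod 5 ended the call (adjusted p of 0.056 and 0.0559), as did testing every gene with at least 1 count (0.0882), or long photoperiod 1 to 3 or 4 to 6 alone (0.1 and 0.162). In pre-hibernation, late pre-hibernation and interbout hamsters Pygl averaged 121 ± 16, 118 ± 16.5 and 127 ± 8.22 CPM, with no call against long photoperiod. Torpor over interbout euthermia gave 0.21 ± 0.12 (edgeR adjusted p = 0.444). Refractory hamsters had 99 ± 17.1 CPM.

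The share of phosphorylase transcripts held by each gene moved with Pygm. Per kilobase, Pygm made up a mean of 4.41% of the 3 phosphorylases on long photoperiod (2.13% to 5.52% over the libraries). Pre-hibernation hamsters had 11.2% (8.76% to 14.7%), late pre-hibernation hamsters 11.6% (9.6% to 14.4%) and interbout hamsters 9.79% (5.15% to 11.8%). Torpid hamsters had 10.4% (5.7% to 19.3%) and refractory hamsters 3.53% (2.3% to 5.07%). Pygb held 76.4% to 82.6% in the group means and Pygl 11.8% to 14.3%. Their summed level averaged 291 CPM per kb on long photoperiod, 402 in torpor and 261 in the refractory group. These shares describe transcripts and carry no test.

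**Figure D2:**
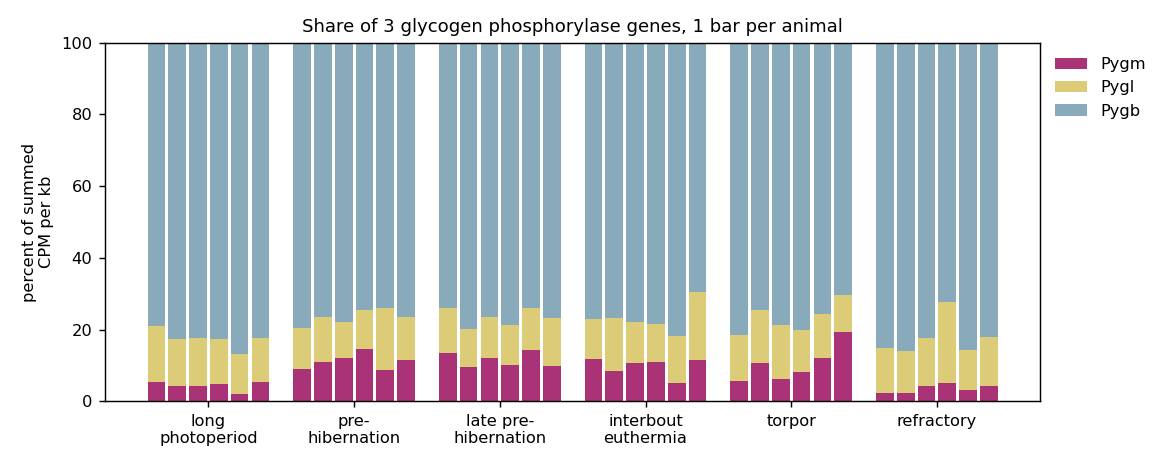
Share of Pygm, Pygl and Pygb in their summed CPM per kb (y axis, percent), 1 bar per animal, by stage (x axis). Pygb fills most of every bar, and the Pygm part is 8.76% or more in all pre-hibernation and late pre-hibernation animals and at most 5.52% in long photoperiod and refractory animals.

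Among the phosphorylase kinase subunits of the 9, the catalytic isoform Phkg2 and the regulatory isoform Phka1 were higher in torpor than on long photoperiod. The other isoforms of these subunits, Phkg1 and Phka2, were not called there. Phkg1 averaged 117 ± 9.17 CPM in torpor and 106 ± 10.9 CPM on long photoperiod, and Phka2 18.2 ± 5.32 and 14.4 ± 1.4 CPM. Phkg2 ran from 80.7 CPM through a median of 91.5 to 106 CPM in torpid hamsters, against 66.3, 69.8 and 77.4 CPM on long photoperiod. The groups did not overlap, as held in this direction for 3.65% of all genes. The change was small, 1.31-fold (91.9 ± 9.93 against 70.4 ± 3.88 CPM, 0.39 ± 0.085, adjusted p = 0.00234). It held in all 12 fits without 1 library, and was lost when every gene with at least 1 count was tested (0.0587) or with long photoperiod 4 to 6 alone (0.105). Interbout hamsters averaged 84 ± 8.11 CPM, 0.26 ± 0.085 above long photoperiod. This was not called by edgeR (adjusted p = 0.132) but was by DESeq2 (0.0412) and limma voom (0.00394), both of which called more of all genes there. Phkg2 in torpor was 0.13 ± 0.085 above interbout euthermia (edgeR adjusted p = 0.52). The refractory animals ranged from 57.2 to 70.7 CPM, all below the 71 to 95.8 CPM of the interbout animals. Such a gap in this direction held for 0.937% of all genes. Phkg2 was thus 1.29-fold lower in the refractory group (64.7 ± 5.26 against 84 ± 8.11 CPM, -0.37 ± 0.086, adjusted p = 0.0171). A fit of those 2 groups alone, in which 5 genes were called, gave -0.37 with an adjusted p of 0.305.

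Phka1 stayed between 6.41 and 14.3 CPM in every library outside torpor. Torpid hamsters had a lowest value of 10.3, a median of 14.7 and a highest of 17.3 CPM, against 7.43, 8.6 and 10.3 CPM on long photoperiod. The means of 14.3 ± 2.27 CPM in torpor and 8.81 ± 1.09 CPM on long photoperiod gave a 1.63-fold difference (0.70 ± 0.16, adjusted p = 0.00337). It held in all 12 fits without 1 library and was lost with long photoperiod 4 to 6 alone (0.0849). Against interbout euthermia (9.96 ± 2.33 CPM) torpor was 0.53 ± 0.16 higher, just short of the threshold (adjusted p = 0.0524). This difference was called by DESeq2 (0.0163) and limma voom (0.000496), and without the rRNA-rich libraries (0.64 ± 0.14, adjusted p = 0.00254). Each of these settings also called more of all genes there than the main fit. One of the rRNA-rich libraries, interbout 6 at 14.3 CPM, is the highest of its group. In the other 4 groups the Phka1 means lay between 8.78 and 9.96 CPM. The beta subunit Phkb was the steadiest of the 9, with group means of 73.1 to 86.4 CPM and no call.

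On the synthesis side no call was made in any of the 7 comparisons. Gys1, glycogen synthase, averaged 28 ± 4.46 CPM in torpor and 25.9 ± 3.32 CPM on long photoperiod, a difference of 0.11 ± 0.17 (95% interval -0.23 to 0.45). In refractory hamsters it averaged 20.3 ± 7.08 CPM, 0.31 ± 0.17 lower than on long photoperiod (adjusted p = 0.438), and its lowest value, 7.88 CPM, was in the rRNA-rich refractory 4. Gbe1, which adds the branches, averaged 103 ± 11.5 CPM in torpor and 85.5 ± 9.4 CPM on long photoperiod (0.27 ± 0.17, adjusted p = 0.422), and limma voom called that difference (0.0315). Pre-hibernation, late pre-hibernation and interbout hamsters had Gbe1 means of 87.4 ± 24.8, 85.5 ± 10.7 and 84.2 ± 10.6 CPM.

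Ppp1r3c, the subunit known as PTG that brings the phosphatase to glycogen, was lowest in pre-hibernation. The 6 libraries there ran from 6.03 CPM through a median of 8.54 to 10.01 CPM, against 10.09, 12.6 and 15.7 CPM on long photoperiod. The groups did not overlap, as was the case in this direction for 1.37% of all genes, although the 2 nearest libraries were 10.01 and 10.09 CPM. The difference of -0.63 ± 0.20 missed the threshold (8.35 ± 1.32 against 13 ± 2.4 CPM, adjusted p = 0.0932). It was called by DESeq2 (0.0438), by limma voom (0.0259) and in a fit of these 2 groups alone (0.028). More of all genes were called there in each of these fits than in the main fit. Late pre-hibernation hamsters averaged 11.3 ± 3.79 CPM, interbout hamsters 13.2 ± 2.66, torpid hamsters 14.7 ± 4.6 and refractory hamsters 12.6 ± 3.49 CPM. The summed level of 10 astrocyte markers was also low in pre-hibernation (3810 ± 278 CPM, against 4865 ± 405 CPM on long photoperiod), and its part in the Ppp1r3c difference was not tested.

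**Figure D3:**
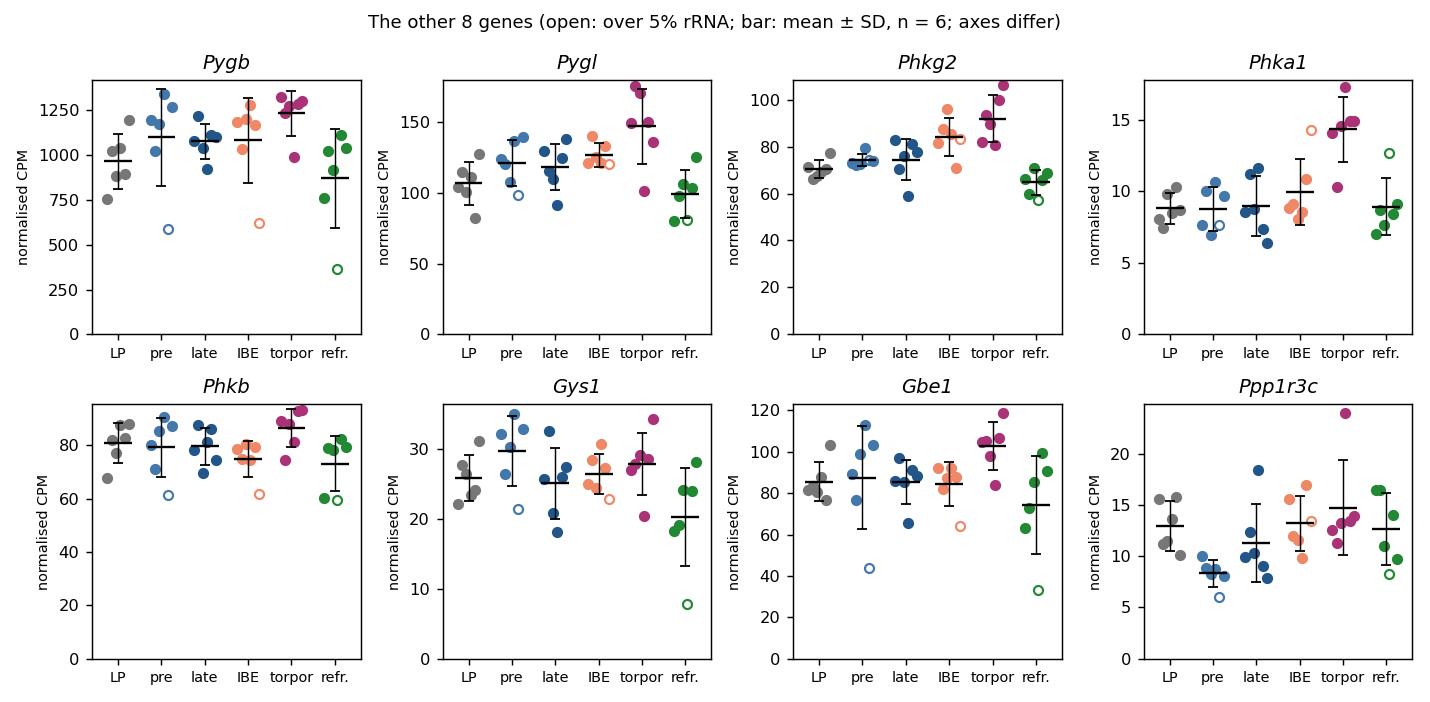
The other 8 genes in normalised CPM (y axes, which differ) for each animal by stage (x axes: LP, long photoperiod; pre, pre-hibernation; late, late pre-hibernation; IBE, interbout euthermia; refr., refractory), with group means and SD; open circles are the 3 rRNA-rich libraries. Phka1 and Phkg2 stand highest in torpor, Ppp1r3c lowest in pre-hibernation, and Phkb keeps group means of 73.1 to 86.4 CPM.

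Set by comparison, 1 of the 9 genes was called in pre-hibernation, in late pre-hibernation and in interbout euthermia against long photoperiod, each time Pygm. The shares of all genes called there were 2.29%, 3.58% and 1.85%. Since the 9 were chosen with earlier results of these data known, setting their calls beside such shares carries no test. In torpor against long photoperiod 4 of the 9 were called, all higher, against 9.05% of all genes (4.32% higher). The median log2 fold change of all 9 was 0.35 and that of all genes 0.0091. All 9 estimates were positive, and 8 with long photoperiod 4 to 6 alone. Without the rRNA-rich libraries the count was 5, with Pygb added, and with long photoperiod 4 to 6 alone it was 1. Calls over all genes also rose in the former fit and fell in the latter. In the refractory group 2 of the 9, Pygm and Phkg2, were called lower than in interbout euthermia, against 3.5% of all genes called (1.47% lower). All 9 estimates were negative there (8 with limma voom, with a filter of 1 CPM, or without the rRNA-rich libraries), with a median of -0.31, where the median of all genes was 0.022.

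Refractory against long photoperiod gave 0 edgeR calls among the 9 (0.329% of all genes were called), 0 at an unadjusted p below 0.05, and 0 by DESeq2 or limma voom. The estimates were negative for all 9, with a median of -0.14 (all genes, 0.026), for 8 of 9 with RLE factors or DESeq2, and for 7 of 9 with limma voom or a filter of 1 CPM. Torpor against interbout euthermia also gave 0 edgeR calls (4.06% of all genes), while 2 genes, Phka1 and Phkb, had an unadjusted p below 0.05, and DESeq2 and limma voom each called 1. All 9 estimates were positive (8 with limma voom), with a median of 0.21 against 0.013 for all genes. Without the rRNA-rich libraries, 2 of the 9 refractory estimates against long photoperiod, Pygb and Ppp1r3c, were slightly positive (0.0064 and 0.05).

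**Figure D4:**
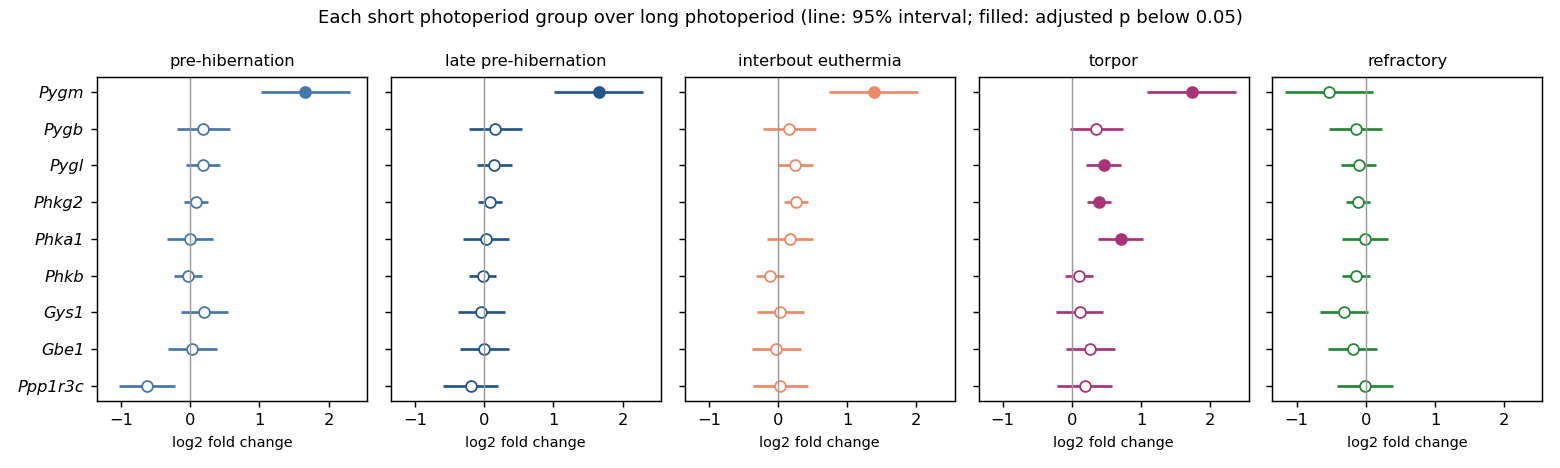
Log2 fold change (x axis) of the 9 genes (y axis) in each of 5 groups over long photoperiod, with the 95% interval; filled points were called. Pygm stands at 1.38 to 1.73 in the 4 groups from pre-hibernation to torpor and at -0.53 in the refractory group, and the 3 other filled points, Pygl, Phkg2 and Phka1, are in torpor.

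The genes whose log2 CPM followed Pygm most closely over the 36 libraries, among 11566 named genes of sufficient level, were Abat, Chrna3, Cpt1b, Sugct and Abr. Their Pearson correlations with Pygm were 0.922, 0.917, 0.909, 0.904 and 0.895, and 0.925, 0.923, 0.934, 0.899 and 0.907 over the 33 libraries that are not rRNA-rich. With the group means removed the correlations were 0.752, 0.877, 0.749, 0.798 and 0.686. Over the 33 libraries these genes ranked 6, 7, 2, 18 and 10, so the choice of names depends on the libraries used. The libraries fall into shared groups and differ in sequencing depth, so these values are a description. Abat, which breaks down the transmitter GABA, averaged 743 to 957 CPM from pre-hibernation to torpor and 434 ± 102 CPM in the refractory group, against 455 ± 83.1 CPM on long photoperiod. Cpt1b, the muscle form of the enzyme that admits fatty acids to mitochondria, averaged 18.4 to 20.4 CPM in the same 4 groups and 6.41 ± 2.85 CPM in the refractory group, against 5.58 ± 1.65 CPM on long photoperiod. Chrna3 encodes a subunit of nicotinic acetylcholine receptors and Sugct a mitochondrial enzyme of glutarate metabolism.

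Since Pygm is best known from skeletal muscle, 8 muscle markers were read in the same libraries. Ckm, muscle creatine kinase, was higher in pre-hibernation (43.6 ± 7.23 CPM, adjusted p = 0.0116), late pre-hibernation (54 ± 11.6 CPM, 0.000303), interbout euthermia (41.4 ± 9.27 CPM, 0.0294) and torpor (50.9 ± 13.7 CPM, 0.000381) than on long photoperiod (23.3 ± 7.07 CPM). It was lower in the refractory group (22 ± 8.46 CPM) than in interbout euthermia (41.4 ± 9.27 CPM, adjusted p = 0.0201). Its interbout call over long photoperiod was lost in 8 of 12 fits without 1 library (adjusted p up to 0.0984), and the refractory call in 2 of 12 (up to 0.0541). Ckm was the only one of the 6 muscle markers tested that was called in these comparisons. The median log2 fold change of all 6 over long photoperiod was 0.52 (pre-hibernation), 0.68 (late pre-hibernation), 0.53 (interbout), 0.57 (torpor) and 0.22 (refractory). For refractory over interbout hamsters this median was -0.24. The myosin genes Myh1 and Myh4 did not pass the filter, with medians of 0.127 and 0.125 CPM and 0 counts in 6 and 10 libraries. The 7 markers other than Ckm summed to 8.77 to 16.2 CPM in the 4 groups from pre-hibernation to torpor, to 9.14 to 70.9 CPM in the refractory group (highest in refractory 4) and to 6.86 to 11.4 CPM on long photoperiod. The part of muscle tissue in the Pygm difference was not tested.

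Markers of astrocytes, which keep glycogen, and of the pituitary, which borders the strip, were read too. The 10 astrocyte markers tested summed to 3487 to 4321 CPM in pre-hibernation, 3277 to 5546 CPM in late pre-hibernation, 3789 to 6046 CPM in interbout euthermia and 4441 to 6121 CPM in torpor. They summed to 2740 to 5382 CPM in the refractory group and 4247 to 5424 CPM on long photoperiod. Their median log2 fold change over long photoperiod was -0.34 in pre-hibernation. There Aqp4, Agt and Aldoc, named after their values were seen, had all libraries below all long photoperiod libraries without being called. Such a gap in this direction held for 1.37% of all genes. Not all of the markers fell there: Aldh1l1 and Slc1a3 overlapped with long photoperiod, at log2 fold changes of 0.11 and 0.038. Of the 10 markers Ntsr2 alone was called, lower than on long photoperiod in all 5 other groups (log2 fold change -2.03 in pre-hibernation to -1.22 in the refractory group). The 6 pituitary markers tested summed to 66.3 to 215 CPM in pre-hibernation, 60.7 to 598 CPM in late pre-hibernation, 84.6 to 195 CPM in interbout euthermia and 68.5 to 176 CPM in torpor. They summed to 87.6 to 1805 CPM in the refractory group and 147 to 2379 CPM on long photoperiod, the groups where Pygm was low. Of the 6, pre-hibernation hamsters had 2 called lower than on long photoperiod, late pre-hibernation hamsters 1, and interbout and torpid hamsters 4 each (median log2 fold changes over the 6 markers of -3.65 in interbout euthermia and -3.74 in torpor). In the refractory group 4 were called higher than in interbout euthermia (median over the 6 markers 3.38). The part of pituitary tissue in the Pygm difference was not tested.

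Other enzymes of the pathway showed few calls. Of 13 listed, 11 were tested, among them glycogenin (Gyg1), UDP-glucose pyrophosphorylase (Ugp2) and the phosphoglucomutases. Phka2, the second alpha subunit of phosphorylase kinase, was the only call in any of the 7 comparisons. It was higher in pre-hibernation than on long photoperiod (22.2 ± 7.18 against 14.4 ± 1.4 CPM, 0.62 ± 0.17, adjusted p = 0.0386). That call held in 3 of 12 fits without 1 library and was lost without the rRNA-rich libraries (0.42, adjusted p = 0.0804). Of all genes, 2.29% were called in that comparison.

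Upstream regulators were called most often in torpor, as were all genes (9.05% over long photoperiod). Of 22 regulators tested, 2 were higher and 3 lower in torpor than on long photoperiod, and 2 were lower in torpor than in interbout euthermia. Of all genes, 4.06% were called between torpor and interbout euthermia. In pre-hibernation, late pre-hibernation and interbout euthermia 1, 2 and 1 of the 22 regulators were called against long photoperiod, all higher. The shares of all genes called in those 3 comparisons were 2.29%, 3.58% and 1.85%, so these small counts are a description. No regulator was called in the refractory group against long photoperiod by edgeR, DESeq2 or limma voom (3 at an unadjusted p below 0.05).

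Prkacb, a catalytic subunit of protein kinase A, was higher in late pre-hibernation than on long photoperiod (93.3 ± 15.1 against 47.9 ± 2.81 CPM, 0.96 ± 0.16, adjusted p = 0.000183). It was higher in torpor too (77.5 ± 27.1 CPM, 0.69 ± 0.16, adjusted p = 0.00383), and in pre-hibernation with a call that held in 1 of 12 fits without 1 library (71.9 ± 7.21 CPM, 0.59 ± 0.16, adjusted p = 0.0397). All late pre-hibernation and torpid libraries lay above all long photoperiod libraries, as they did for 2.8% and 3.65% of all genes. With long photoperiod 4 to 6 alone the torpor call was lost (0.0942), as was that of Ppp1cb (0.0646). Ppp1cb, a catalytic subunit of protein phosphatase 1, averaged 269 ± 48.1 CPM in torpor and 164 ± 5.99 CPM on long photoperiod (0.71 ± 0.15, adjusted p = 0.00158). It was also called in late pre-hibernation (242 ± 16.1 CPM, 0.56 ± 0.15, adjusted p = 0.025), which held in 4 of 12 fits without 1 library. Prkab2, a subunit of AMP-activated kinase that can bind glycogen, was higher in interbout euthermia (11.7 ± 1.76 against 7.41 ± 1.13 CPM, 0.65 ± 0.17, adjusted p = 0.0388), and this held in 3 of 12 such fits.

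Ppp1r3b, another subunit that targets the phosphatase to glycogen, was low in torpor. The torpid libraries lay within 2.24 to 2.73 CPM, long photoperiod libraries within 4.1 to 6.62 CPM and interbout libraries within 3.02 to 7.11 CPM. The log2 fold changes were -0.98 ± 0.23 against long photoperiod (adjusted p = 0.00434) and -0.89 ± 0.23 against interbout euthermia (adjusted p = 0.0182). With long photoperiod 1 to 3 alone the first was lost (0.05001), and without interbout 3 or 6 the second (0.0515 and 0.0694). The calls outside the 8 genes with the smallest p, named after their values were seen, were Ppp1r3e and Ppp1cc (lower in torpor than on long photoperiod) and Ppp1r3d (lower in torpor than in interbout euthermia).

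Of 7 receptors tested that feed into glycogen turnover, 1 was higher and 2 were lower in torpor than on long photoperiod, where 9.05% of all genes were called. Adra1a, an adrenergic receptor coupled to calcium release, averaged 4.67 ± 1.19 CPM in late pre-hibernation, 4.42 ± 1.69 in interbout euthermia and 4.32 ± 1.99 in torpor, against 1.4 ± 0.698 CPM on long photoperiod (log2 fold changes of 1.73, 1.65 and 1.61, adjusted p of 0.00468, 0.0147 and 0.00477). With long photoperiod 4 to 6 alone these 3 calls were lost (adjusted p of 0.144, 0.286 and 0.131). In the refractory group it was 4.49 ± 3.51 CPM, a difference of 1.54 ± 0.39 that missed the threshold (adjusted p = 0.0518) but was called by DESeq2 (0.0065) and with RLE factors (0.0475). Limma voom did not call it (0.111), and the highest value, 11.3 CPM, was in the rRNA-rich refractory 4, without which the difference was 1.16 (adjusted p = 0.24). P2ry1, a purinergic receptor also coupled to calcium release, was lower than on long photoperiod in torpor (10.3 ± 3.61 against 22.5 ± 5.75 CPM, -1.13 ± 0.25, adjusted p = 0.00295; 0.151 with long photoperiod 4 to 6 alone). In interbout euthermia (11.2 ± 2.94 CPM, adjusted p = 0.028) the call held in 5 of 12 fits without 1 library.

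Insr, the insulin receptor, was lower in torpor than in interbout euthermia (15.2 ± 1.14 against 23.1 ± 3.88 CPM, -0.60 ± 0.17, adjusted p = 0.0328, held in 5 of 12 fits without 1 library). Against long photoperiod (25 ± 3.89 CPM) its difference was -0.72 ± 0.17 (adjusted p = 0.00446). Torpid libraries ran from 14.4 to 17.5 CPM and long photoperiod libraries from 21.6 to 31.4 CPM.

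**Figure D5:**
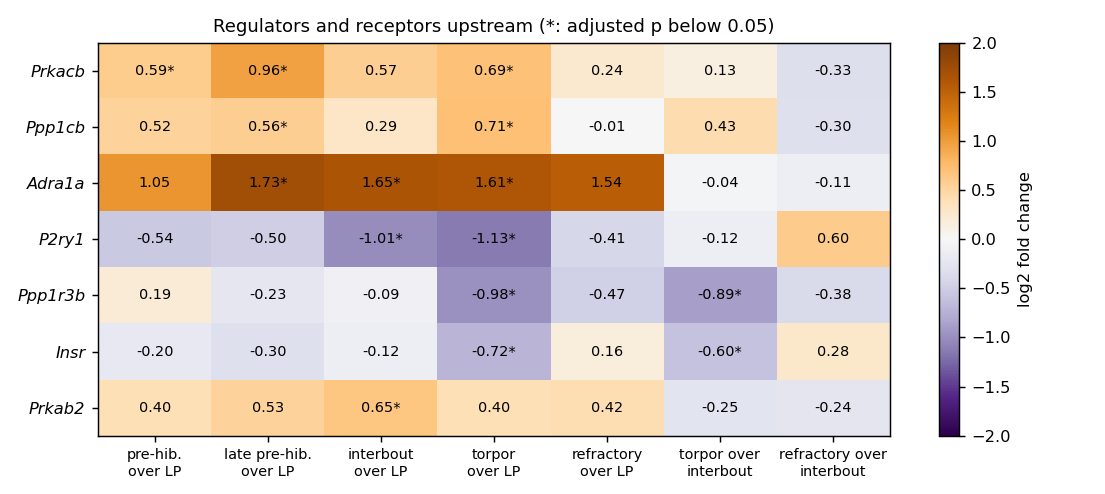
Log2 fold changes of the 7 regulators and receptors with the smallest p (y axis) in 7 comparisons (x axis; LP, long photoperiod); an asterisk marks a call. The lower values of Ppp1r3b and Insr are called in both torpor columns, and Prkacb and Adra1a are positive in all 5 columns over long photoperiod.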

How the data were processed

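Deposited files hold raw counts per gene, which the authors made with featureCounts 2.0.1 over exons of the RefSeq annotation of BCM_Maur_2.0, paired-end and unstranded, per the file headers. Alignment files carry the name STAR; its version was not given in the sources used here. Without strand, reads of overlapping genes cannot be told apart. Per the labels, RNA integrity numbers lay between 7 and 9. No sequence of the genes was used here, and 2 genes of the other lists are not reported here.

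After filterByExpr and TMM scaling, edgeR 4.0.16 (R 4.3.3) fitted a robust quasi-likelihood model with 1 coefficient per group to the 36 libraries, with p values adjusted by Benjamini-Hochberg over 17926 genes. Normalised CPM use the TMM library sizes; a prior count of 2 was added for log2 CPM. Of the 32340 genes, 31895 matched the RefSeq gene table by name, and 0 pairs of libraries were identical. Alternatives were RLE factors, DESeq2 1.42.0, limma 3.58.1 voom (with quality weights), a block for the replicate number, and the low-count filter set to 1 CPM in 6 libraries or to 1 count. Fits were repeated without the 3 rRNA-rich libraries, without each library in turn, with the 2 groups compared alone, and with long photoperiod 1 to 3 or 4 to 6 alone, whose file names follow 2 patterns.

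The 9 genes, the other lists and the markers were chosen with earlier results of these data known. Also named were at most 8 called genes of the other lists, by smallest p, and the 5 genes most correlated with Pygm among those whose mean log2 CPM was 1 or more. Each library is 1 animal per the labels, so p values measure the spread between animals. The workflow was tested on simulated data. Figures were made with Python 3.11.15 and matplotlib 3.10.9.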

Additional observations from a re-analysis of the deposited data

Results flagged for a closer look

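Single animals stood apart from their group in 8 of the 54 sets of 6 libraries examined (9 genes in 6 groups), by a gap to the nearest library that exceeded Dixon's 95% limit. Chance gives such a gap in about 1 set in 20.

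The rRNA-rich interbout 6 accounted for 3 of the 8: it was low for Pygb (622 CPM, the others 1040 to 1280), Phkb (61.8 CPM, the others 74.5 to 80.5) and Gbe1 (63.9 CPM, the others 81.8 to 92.2). The rRNA-rich refractory 4 was high for Phka1 (12.7 CPM, the others 7.05 to 9.1). Torpid 4 was low for Pygb (988 CPM, the others 1240 to 1330) and high for Ppp1r3c (23.9 CPM, the others 11.3 to 13.9). Late pre-hibernation 4 was low for Gbe1 (65.5 CPM, the others 85.3 to 96.9), and pre-hibernation 4 was high for Phkg2 (79.3 CPM, the others 72.3 to 74.5).

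The effect against long photoperiod also differed between the refractory group and interbout euthermia for Pygm, by -1.91 (edgeR adjusted p = 0.00177), and for Phkg2, by -0.373 (edgeR adjusted p = 0.0171). This is the same contrast as refractory against interbout euthermia in the report, since both share the long photoperiod animals.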

How the results depend on the processing

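All genes called were 411 (pre-hibernation over long photoperiod, LP), 642 (late pre-hibernation over LP), 332 (interbout over LP), 1622 (torpor over LP), 59 (refractory over LP), 728 (torpor over interbout), 628 (refractory over interbout) and 2625 (all 6 groups). With RLE factors, all genes called came to 165 (refractory over LP). With DESeq2, all genes called came to 637 (pre-hibernation over LP), 614 (interbout over LP), 330 (refractory over LP), 1153 (torpor over interbout), 972 (refractory over interbout) and 4172 (all 6 groups), and calls among the 9 to 2 (pre-hibernation over LP), 2 (interbout over LP) and 1 (torpor over interbout). With limma voom, all genes called came to 2102 (pre-hibernation over LP), 3071 (late pre-hibernation over LP), 1543 (interbout over LP), 4275 (torpor over LP), 186 (refractory over LP), 1927 (torpor over interbout), 1170 (refractory over interbout) and 7787 (all 6 groups), and calls among the 9 to 3 (pre-hibernation over LP), 2 (interbout over LP) and 1 (torpor over interbout). With a filter of 1 CPM in 6 libraries, all genes called came to 390 (refractory over interbout). With no filter beyond 1 count, all genes called came to 263 (pre-hibernation over LP), 203 (interbout over LP), 1066 (torpor over LP), 482 (torpor over interbout), 2026 (refractory over interbout) and 5943 (all 6 groups), and calls among the 9 to 2 (torpor over LP). With the replicate block, all genes called came to 219 (refractory over interbout). With a fit of the 2 groups compared, all genes called came to 697 (pre-hibernation over LP), 1338 (late pre-hibernation over LP), 2934 (torpor over LP), 9 (refractory over LP) and 5 (refractory over interbout), and calls among the 9 to 2 (pre-hibernation over LP) and 1 (refractory over interbout). With the 3 rRNA-rich libraries left out, all genes called came to 1141 (pre-hibernation over LP), 1747 (late pre-hibernation over LP), 847 (interbout over LP), 3787 (torpor over LP), 95 (refractory over LP), 1601 (torpor over interbout) and 4952 (all 6 groups), and calls among the 9 to 1 (torpor over interbout). With long photoperiod 1 to 3 alone, all genes called came to 108 (pre-hibernation over LP), 270 (late pre-hibernation over LP), 102 (interbout over LP) and 836 (torpor over LP), and calls among the 9 to 0 (interbout over LP). With long photoperiod 4 to 6 alone, all genes called came to 111 (pre-hibernation over LP), 226 (late pre-hibernation over LP), 56 (interbout over LP), 602 (torpor over LP) and 6 (refractory over LP), and calls among the 9 to 0 (pre-hibernation over LP), 0 (late pre-hibernation over LP), 0 (interbout over LP) and 1 (torpor over LP). Leaving out each library in turn gave 263 to 381 (pre-hibernation over LP), 464 to 735 (late pre-hibernation over LP), 178 to 362 (interbout over LP), 1203 to 1534 (torpor over LP), 23 to 413 (refractory over LP), 556 to 701 (torpor over interbout), 222 to 1007 (refractory over interbout) and 2255 to 3169 (all 6 groups) calls among all genes, and 1 throughout (pre-hibernation over LP), 1 throughout (late pre-hibernation over LP), 1 throughout (interbout over LP), 3 to 4 (torpor over LP), 0 throughout (refractory over LP), 0 to 1 (torpor over interbout), 2 to 3 (refractory over interbout) and 4 to 5 (all 6 groups) among the 9. For refractory over long photoperiod the highest counts, 348 to 413, came without refractory 1, 2, 3, 5 or 6, and the count was 41 without the rRNA-rich refractory 4; the lowest, 23, came without long photoperiod 6. For refractory over interbout the count was 1007 without refractory 6, 1000 without refractory 3, 229 without refractory 4, and 315, 253 and 222 without interbout 2, 3 and 4. For interbout over long photoperiod it was 187, 215 and 196 without long photoperiod 1, 3 and 4, and 195 and 178 without interbout 3 and 4, and for pre-hibernation 263 without long photoperiod 4. The cause was not tested.

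The replicate numbers of the labels did not pair animals: deviations of same-numbered animals correlated between -0.338 and 0.481 (90 pairs, median 0.00829), and 2 of 36 libraries correlated best with their own number. With the replicate block the calls were 1, 1, 1, 4, 0, 0 and 2 among the 9 in the 7 comparisons, as without it, and 4 among the 6 groups, where Ppp1r3c was lost (edgeR adjusted p = 0.0576). It also ended the pre-hibernation calls of Prkacb and Phka2 (0.0705 and 0.0652) and the call of Insr in torpor over interbout (0.0518). Depth limits the low genes most: Phka1 had 37 counts and Ppp1r3c 24 in refractory 4, where the lowest total of 5.16 M was found, and counting error alone is then wide. The calls of Pygm over long photoperiod were lost only where 3 long photoperiod animals were used. Besides the refractory estimates given in the report, Pygm in torpor over interbout changed sign: it was -0.032 by limma voom, and without single libraries ran from -0.00039 to 0.47. Elsewhere the log2 fold change of Pygm stayed between 1.22 and 1.86 over all settings and libraries left out in those 4 comparisons.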
